A study of Ovis aries with 24 samples.

Results

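The genes described here make, fold and cross-link fibrillar collagen, the main fibre of the connective tissue that surrounds muscle cells. COL1A1, COL1A2, COL3A1, FN1, SERPINH1, LOX and FKBP11 were taken by exact gene symbol from the platform annotation of a bovine array. These 7 genes, of 7484 with a tested probe set, are represented by 11 of the array's 24128 probe sets. Of the 11, 10 were among the 15664 tested, whose signal exceeded the overall median in 1 group or more. The probe set left out, a dim one of FN1, had signals of 1.5 to 49.9 over all arrays.

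Skeletal muscle RNA of Dorset, Suffolk and Rambouillet cross-bred sheep was hybridised to 24 arrays in 12 groups of 2 technical replicates. The back muscle longissimus dorsi (LD) came from CN, CC, NC and NN lambs at 11 to 12 weeks of age (T12) and within 5 days of birth (T0). At T12 the shoulder muscle supraspinatus (SS) of CN and NN lambs was also sampled, and semitendinosus (ST) and the muscle coded SM of NN lambs. CN is the paternal heterozygote, the genotype in which the callipyge mutation enlarges muscle, CC the homozygote, NC the maternal heterozygote and NN the wild type. The labels give SM more than one muscle name, so the code is kept. The protocols speak of LD from 8 male lambs, 4 of each genotype, and name NN and CN in particular, while the LD arrays carry 4 genotype labels. Which animals, and how many, stand behind an array is unknown, so a difference between animals cannot be told apart from one between genotypes, ages or muscles. The source labels of the T12 arrays also contain the word birth beside the T12 code, and age was taken from that code and the age label. All lambs came from a single flock.

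Type I collagen is a triple helix made from the products of COL1A1 and COL1A2. Type III collagen is built from identical chains of COL3A1 and is abundant in young and distensible tissue. New chains are hydroxylated and folded in the endoplasmic reticulum (ER), where SERPINH1 (HSP47) is a chaperone dedicated to collagen and FKBP11 is a prolyl isomerase of secretory cells. Outside the cell, fibronectin from FN1 guides the assembly of fibrils, and LOX, lysyl oxidase, oxidises lysines so that the fibrils become cross-linked. In muscle this matrix carries force and its collagen is made mainly by fibroblasts.

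The age comparison in LD gave the most calls among the 7 genes. COL1A1, COL1A2, SERPINH1, LOX and FKBP11 were lower at T12 than at T0 in CC, NC and NN lambs, by 1.67-fold for COL1A2 to 6.30-fold for FKBP11, a dim gene whose fold is uncertain, while COL3A1 and FN1 differed by less than their error. Of the 7 genes, 5 passed the test as lower and 0 as higher, where 5.79% of all tested probe sets passed as lower, 5.89% as higher and 11.7% in either direction. The median log2 difference of the 7 genes was −1.40, against −0.006 over 7484 genes. Tests were made with limma, with Benjamini-Hochberg adjustment over all tested probe sets and a threshold of 0.05, and each group of 2 arrays entered as 1 value. In whole muscle, fewer cells of a type and less RNA per cell cannot be told apart.

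**Figure D1:**
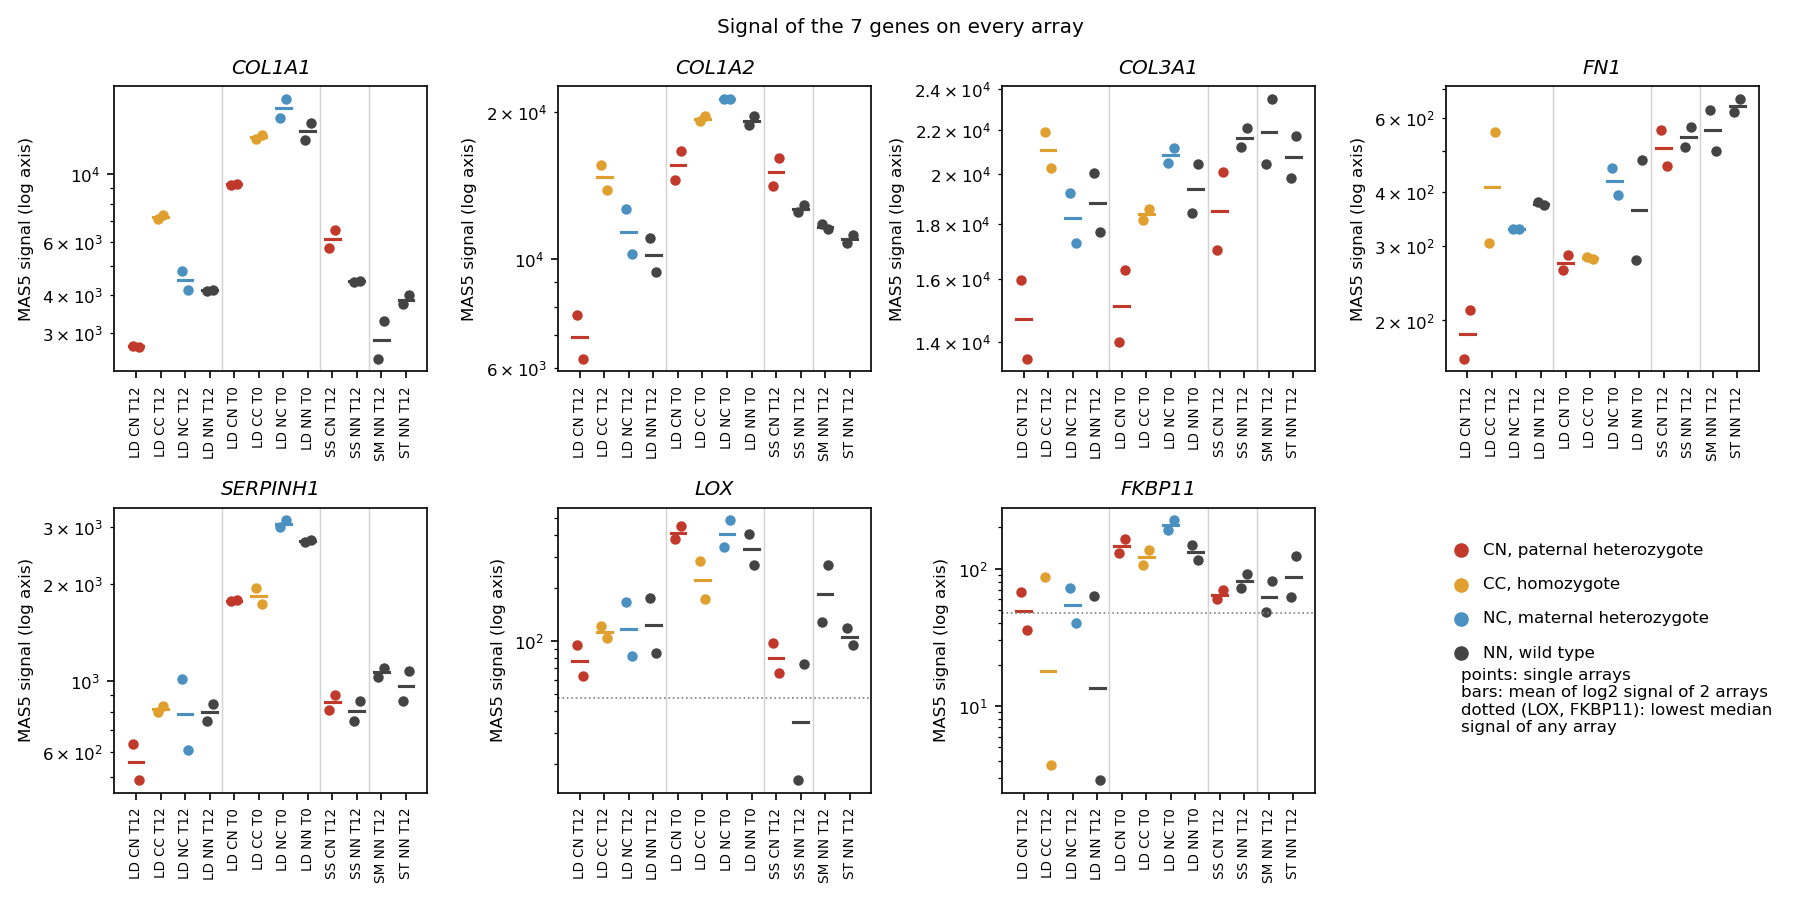
MAS5 signal of the brightest probe set of each gene on all 24 arrays (log axes), by muscle, genotype and age, with a bar at the mean log2 signal of each group. In LD, COL1A1 and SERPINH1 sit lower on every T12 array than on any T0 array, whereas the COL3A1 arrays of both ages overlap and are lowest in CN.

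COL1A1 signal at T12 was 7142.1 and 7355.1 in CC, 4816.5 and 4174.8 in NC, and 4145.4 and 4150.5 in NN LD. At T0 it was 13051.3 and 13451.1 in CC, 15338.2 and 17665.2 in NC, and 12962.1 and 14739.2 in NN LD. The 6 T12 arrays all lay below the 6 T0 arrays, a pattern that 4.97% of all tested probe sets share. The log2 difference was −1.49 ± 0.18 (SE, 3 group values at each age), a 2.82-fold lower signal, with a limma adjusted p of 0.000925. The step was smaller in CC (−0.87) than in NC (−1.88) and NN (−1.74), a difference that was not tested. A second COL1A1 probe set was dim (5.3 to 113.4 over all arrays) and had a log2 difference of −1.28 with a limma adjusted p of 0.0946.

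COL1A2 signal at T12 was 15598.9 and 13873.7 in CC, 12636.7 and 10227.8 in NC, and 11023.2 and 9400.4 in NN LD. At T0 it was 19116.3 and 19618.5 in CC, 21208 and 21246.4 in NC, and 18774.7 and 19566.2 in NN LD. No T12 array reached a T0 array, as in 4.97% of all tested probe sets. The log2 difference was −0.74 ± 0.13 (limma adjusted p = 0.00465), and the other probe set of the gene gave −1.38 ± 0.21 (limma adjusted p = 0.00226). The 2 probe sets of COL1A2 had the same direction and different sizes. The brighter one gave the smaller difference.

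COL3A1, the type III chain, did not pass the test. Its signal at T12 was 21865.2 and 20283.5 in CC, 19219 and 17293.6 in NC, and 20049.9 and 17673.5 in NN LD. At T0 it was 18157.7 and 18594.5 in CC, 20507.3 and 21169.8 in NC, and 18402.1 and 20430.7 in NN LD. The ranges of the 2 ages overlapped. The log2 difference was −0.013 with a 95% interval of −0.22 to 0.19, and −0.10 on the other probe set (limma adjusted p = 0.948 and 0.730). Quantile normalization turned its sign, to 0.072. The COL3A1 signals lie near the top of the scale, since the highest signal on any array was 27592.8 to 47009.9, and the part of compression at that level was not tested. The other COL3A1 probe set was dimmer, with a lowest signal of 4758.8.

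SERPINH1, the collagen chaperone, had the lowest p of the 7 genes in the age comparison. Its signal at T12 was 796.2 and 832.5 in CC, 1010.4 and 609.7 in NC, and 747.1 and 848 in NN LD. At T0 it was 1945 and 1727.3 in CC, 2996.4 and 3149.8 in NC, and 2703 and 2735.7 in NN LD. All T12 arrays lay below all T0 arrays, as in 4.97% of all tested probe sets. The group means were closer together at T12 than at T0, but the NC arrays at T12 spanned 609.7 to 1010.4. SERPINH1 differed by −1.64 ± 0.17 on the log2 scale, 3.11-fold lower, with a limma adjusted p of 0.000415.

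LOX, which starts collagen cross-linking, read 122.4 and 103.7 in CC, 168 and 82.2 in NC, and 175.8 and 85.8 in NN LD at T12. At T0 it read 286 and 172.8 in CC, 341.2 and 485.9 in NC, and 407.8 and 272.1 in NN LD. The highest T12 array overlapped the lowest T0 array, and the group means did not overlap. LOX differed by −1.40 ± 0.23 on the log2 scale (limma adjusted p = 0.00337). The 2 arrays of a group differed by a median of 0.59 on the log2 scale for LOX, against 0.072 for COL1A1.

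FKBP11, the ER prolyl isomerase, was close to the array medians at T12. Its signal at T12 was 86.7 and 3.7 in CC, 71.9 and 40.4 in NC, and 63.1 and 2.9 in NN LD. At T0 it was 106.5 and 137.2 in CC, 189.8 and 223.8 in NC, and 148.4 and 115.9 in NN LD. All T12 arrays were below all T0 arrays, as in 4.97% of all tested probe sets. However, 3 of the 6 T12 arrays fell under 47.4, the lowest median signal of any array, so the size of the difference is uncertain. FKBP11 differed by −2.66 ± 0.46 on the log2 scale (limma adjusted p = 0.00463), and without CC T12 array 2, which read 3.7, it was −1.90 (limma adjusted p = 0.0546).

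FN1, which makes the fibronectin scaffold, read 304.6 and 555.5 in CC, 328.3 and 328.4 in NC, and 380 and 373.4 in NN LD at T12. At T0 it read 281.8 and 278.6 in CC, 457 and 394.5 in NC, and 277.1 and 476.1 in NN LD. The ages overlapped, and the log2 difference was 0.079 with a 95% interval of −0.30 to 0.46 (limma adjusted p = 0.815). Without the intensity trend of the variance in limma, the calls of COL1A1, COL1A2, LOX and FKBP11 ended, with adjusted p of 0.0511, 0.0837, 0.0517 and 0.0644, while SERPINH1 kept an adjusted p of 0.0383.

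**Figure D2:**
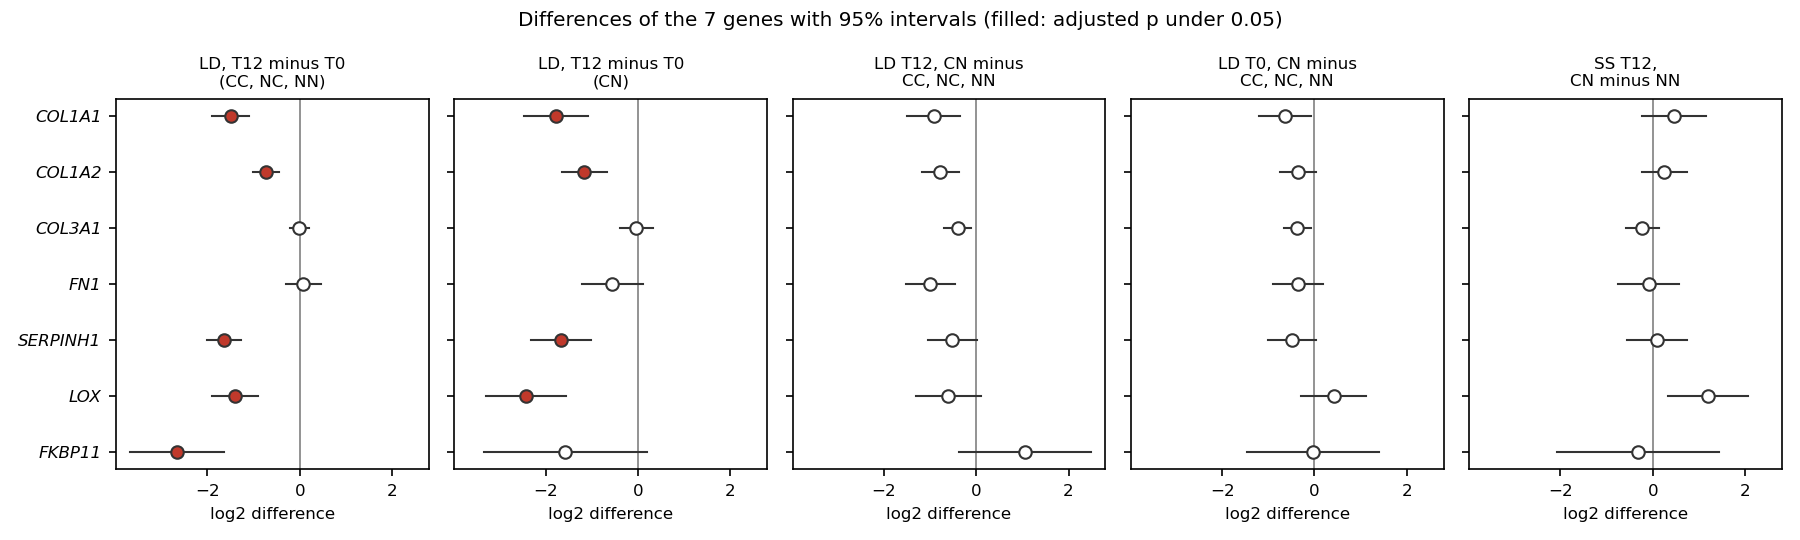
Log2 differences of the 7 genes with 95% intervals from limma in 5 comparisons, filled where the adjusted p is under 0.05. Filled points occur in the 2 age comparisons, 5 in CC, NC and NN and 4 in CN, and in none of the genotype comparisons.

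In CN lambs COL1A1, COL1A2, SERPINH1 and LOX were lower at T12 than at T0. COL1A1 read 2715.4 and 2714.1 at T12 and 9236.5 and 9302.9 at T0, a log2 difference of −1.77 ± 0.32 (limma adjusted p = 0.0180). COL1A2 read 7695.9 and 6268.6 at T12 and 14543.4 and 16624.9 at T0, a difference of −1.16 (limma adjusted p = 0.0219). The type I collagen pair was at 3.42-fold and 2.24-fold lower signal at T12, with no overlap of arrays, as in 25.5% of all tested probe sets. The dim second COL1A1 probe set gave −2.06 with overlapping arrays and did not pass. SERPINH1 read 633.4 and 490.8 at T12 and 1765 and 1780.9 at T0, and LOX read 95.1 and 63.2 at T12 and 381.3 and 451.5 at T0. Their differences were −1.67 and −2.42 (limma adjusted p = 0.0166 and 0.0128). FKBP11 read 67.3 and 35.7 at T12 and 129.1 and 164 at T0, which did not pass the test (−1.57, limma adjusted p = 0.336). FN1 (−0.56) and COL3A1 (−0.041) did not pass either. The other, dimmer COL3A1 probe set gave −0.47 and did not pass. Its T12 arrays lay below its T0 arrays, as in 25.5% of all tested probe sets.

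Markers of other cell types and the GAPDH measure of RNA integrity also differed between the CN arrays of the 2 ages. The adipocyte markers summed to 285.8 to 479.3 at T12 and 820.5 to 936.4 at T0, with 1 of 4 called lower. The tendon markers summed to 3490 to 4832 at T12 and 5553 to 5730 at T0, and the cartilage markers to 119.1 to 127.2 at T12 and 272.8 to 304.8 at T0, with none called by limma. The fibroblast markers summed to 10730 to 11530 at T12 and 11690 to 12110 at T0, with 0 of 10 called. The log2 ratio of the 3′ to the 5′ GAPDH control probe set, a measure of RNA integrity, was −0.033 and 0.085 at T12 and 0.23 and 0.225 at T0. The same ratio of the actin control probe sets overlapped between the ages, at 0.047 and 0.036 at T12 and 0.0087 and 0.223 at T0. The part of these in the CN age differences was not tested.

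In all, 4 of the 7 genes were called lower with age in CN, where 1.82% of all tested probe sets were. Each of these comparisons rests on 1 group value at each age, whose spread is taken from the CC, NC and NN groups. Without the intensity trend none of the 4 calls held (adjusted p = 0.118 to 0.184). The difference between the age step of CN and that of the other genotypes was tested as an interaction. It was called for 0 of the 7 genes and for 0 of all tested probe sets (8.89% had an unadjusted p under 0.05, and 1 of the 7 genes did). The lowest adjusted p was 0.555, for LOX, whose step differed by −1.02 (95% interval −2.02 to −0.013).

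The unequal change of type I and type III collagen was also described as a ratio within each array group. The measure was chosen after the values were seen and was not tested. In LD the log2 ratio of COL1A1 to COL3A1 differed by −1.54 between T12 and T0 over the 4 genotypes, and that of COL1A2 to COL3A1 by −0.82. For SERPINH1, LOX and FKBP11 the ratio to COL3A1 differed by −1.63, −1.64 and −2.36. In these 5 ratios all 4 T12 values lay below all 4 T0 values, a pattern that 6.45% of all tested probe sets show against COL3A1. The ratio of FN1 to COL3A1 differed by −0.06. Against the other COL3A1 probe set the 5 differences were −1.37, −0.65, −1.45, −1.47 and −2.19. Such a ratio does not show that COL3A1 itself stayed constant.

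**Figure D3:**
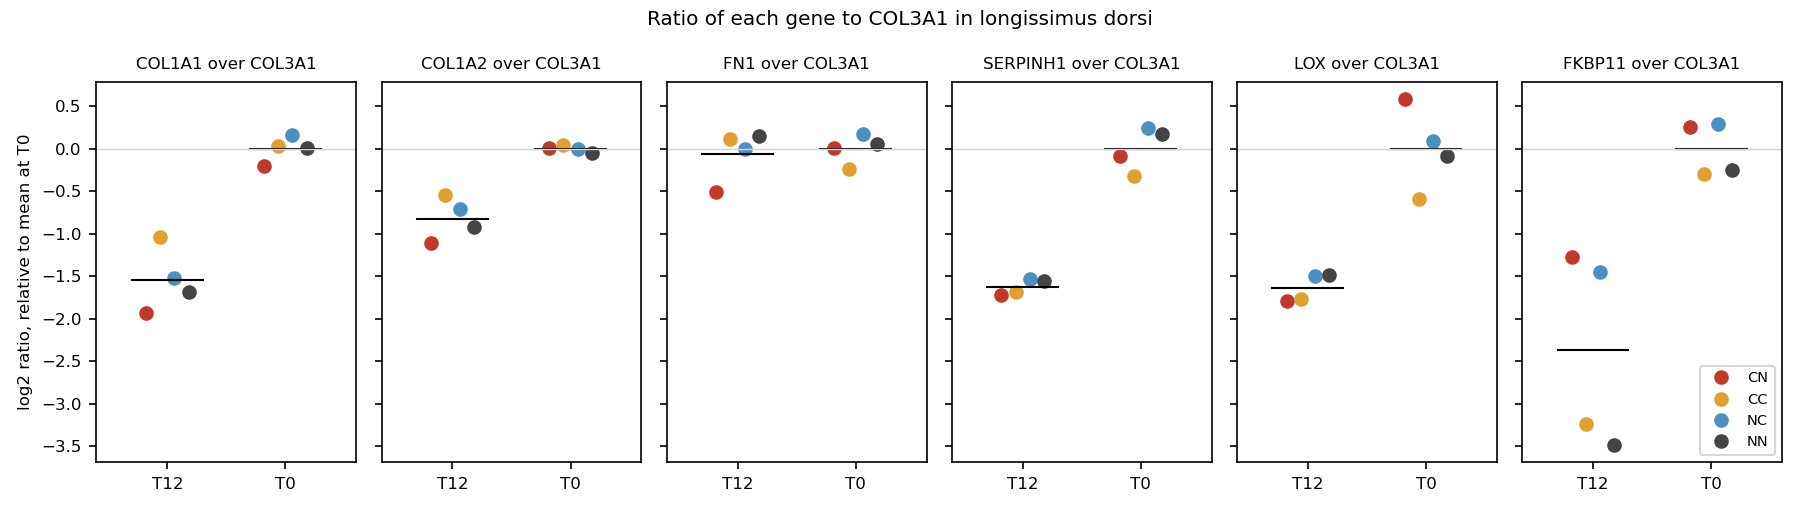
Log2 ratio of each gene to COL3A1 in LD, per genotype group (points) with the mean of 4 groups (line), relative to the mean at T0. For COL1A1 the T12 values run from −1.94 to −1.04 and the T0 values from −0.20 to 0.16, and of the 6 ratios only that of FN1 overlaps between ages.

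The other genes of collagen production were read by role from a list of 117, of which 93 were on the array by name and 86 were tested. With age in CC, NC and NN, 21 of the 86 were called lower and 1 higher, where 5.79% of all tested probe sets were called lower and 5.89% higher. A negative difference was found in 65 of the 86, against 50.5% of all genes, and the median log2 difference was −0.29. Among the other fibrillar collagen genes 3 of 6 were lower. COL11A1 and COL11A2, chains of the minor type XI collagen, had differences of −3.46 and −2.01, and COL2A1, the chain of cartilage collagen, one of −2.55. COL11A2 averaged 17.2 at T12 and 69.5 at T0, so its T12 level lies under 47.4. Cartilage markers moved along with them, since 2 of the 3 measured were called lower and their summed signal was 67.8 to 261.9 at T12 and 422.5 to 874.1 at T0. COL2A1 is one of those markers, and their part in these differences was not tested.

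Collagen chains must be hydroxylated on proline before the helix is stable, and 4 of 8 genes of this step were lower at T12. They were PPIB (cyclophilin B, −0.85), P3H1 (prolyl 3-hydroxylase, −0.68), and the prolyl 4-hydroxylase subunits P4HB (−0.64) and P4HA1 (−0.63). Of 5 lysyl hydroxylation and glycosylation genes, 0 were called (limma; 0 of 5 in CN as well), with a median of −0.048. In folding and export 6 of 17 were lower. SPARC, a collagen-binding protein, had −1.01, FKBP7, an ER prolyl isomerase, had −0.94, and the general ER chaperones HSP90B1, HSPA5, CALR and PDIA3 had −0.95, −0.95, −0.91 and −0.62. These chaperones fold many secreted proteins besides collagen.

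Outside the cell, PCOLCE, which enhances removal of the C-propeptide, was lower (−0.88), 1 of 3 processing genes. In cross-linking 1 of 4 was called, TGM1 (−1.20), a transglutaminase best known from skin, while the lysyl oxidase relatives LOXL1 and LOXL4 did not pass. Of 18 fibril associated genes 4 were lower, namely ELN (elastin, −1.33), FMOD (fibromodulin, −1.25), COL12A1 (−1.21) and MFAP2 (−0.62). ITGB1, the integrin beta 1 subunit shared by collagen receptors, was lower by a small amount (−0.37), 1 of 6 receptors. CTSK, a collagen-degrading protease, was lower too (−0.75), 1 of 8 genes listed under breakdown. That list also holds the protease inhibitors TIMP1, TIMP2, TIMP3 and TIMP4, none of which was called. In the TGF-beta group CCN1, a matrix-associated signalling protein, was higher (0.995) and the median was 0.16 over 11 genes. The limma adjusted p of these called genes ranged up to 0.0353 for P4HA1. Of all tested probe sets 5.79% were called lower and 5.89% higher, so 1 call in a role of few genes does not set that role apart.

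**Figure D4:**
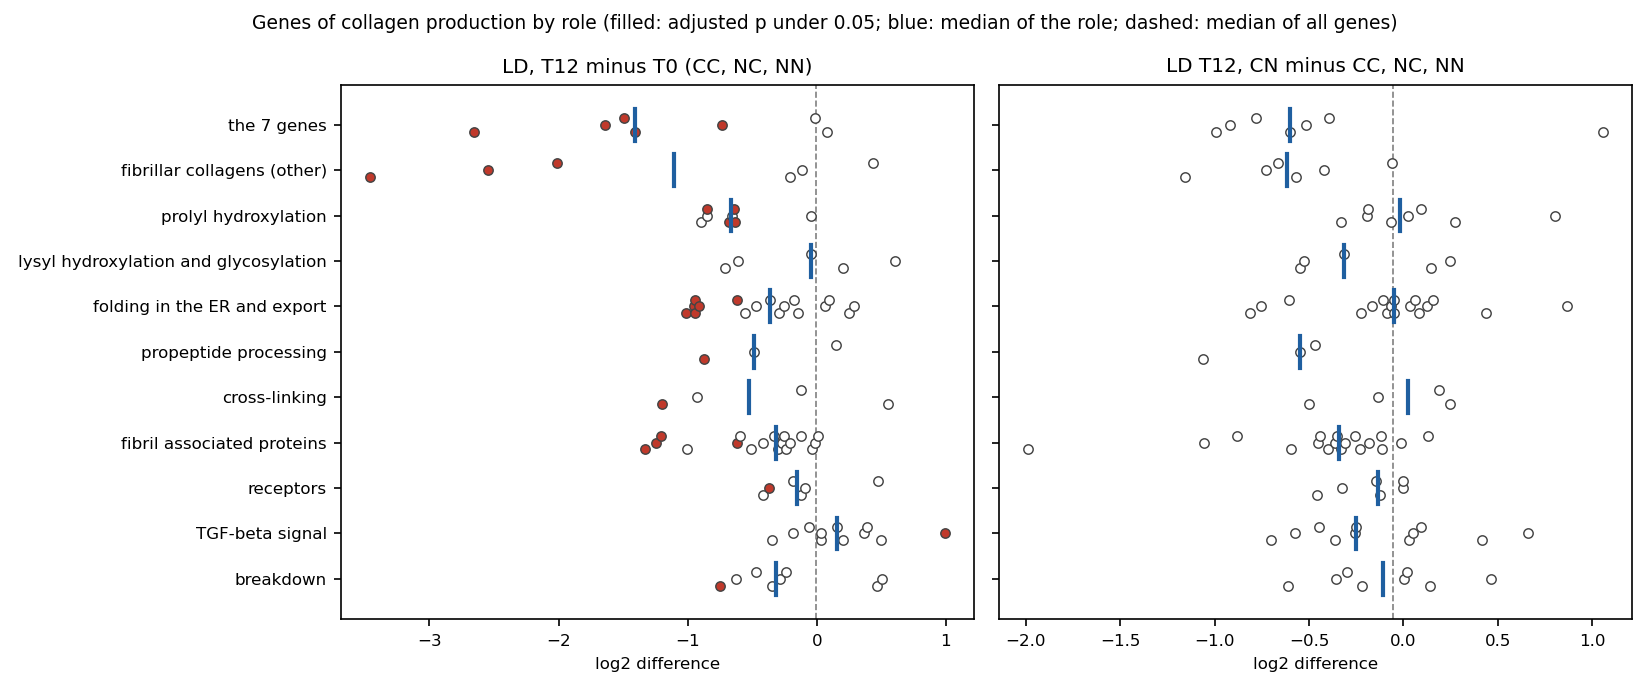
Log2 differences of the 7 genes and of the other genes of collagen production by role, for T12 minus T0 in LD (left) and CN minus CC, NC and NN in LD at T12 (right), filled where the limma adjusted p is under 0.05. At left, filled points lie below 0 in every role that holds one except the TGF-beta group, where CCN1 lies above 0, and at right no point is filled.

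In CN, 10 of these 86 genes were called lower with age and 0 higher, where 1.82% of all tested probe sets were lower. They were COL11A1 (−3.63), HSP90B1 (−1.77), CALR (−1.51), P4HB (−1.28), HSPA5 (−1.26), PCOLCE (−1.13), CCN2 (connective tissue growth factor, −1.05), CANX (calnexin, −0.96), PPIB (−0.92) and PDIA3 (−0.75). HSP90B1 averaged 736 at T12 and 2515 at T0 in CN, and 762 at T12 and 1475 at T0 in the other genotypes. The interaction was called for 0 of the 86.

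Markers of fibroblasts are given beside the age step of type I collagen. None of 10 fibroblast markers was called between T12 and T0 in CC, NC and NN by limma, and their median log2 difference was −0.079. Their summed signal was 12850 to 15250 at T12 and 13380 to 16290 at T0. DCN, LUM, COL15A1, MFAP5 and FBLN1 are fibroblast markers here and also fibril associated genes of the list above, so these readings share genes. DCN alone averaged 7808 at T12 and 8020 at T0. Of 4 tendon markers, which include FMOD, 2 were lower at T12, with sums of 4099 to 7134 at T12 and 7125 to 9575 at T0. The muscle fibre markers summed to 204900 to 247900 at T12 and 171100 to 202700 at T0, with 1 of 8 called higher at T12. Of 7 smooth muscle and pericyte markers 3 were higher at T12, with sums of 6164 to 8778 at T12 and 4893 to 5539 at T0. In CC, NC and NN the GAPDH 3′ to 5′ log2 ratio was 0.043 to 0.246 at T12 and 0.131 to 0.307 at T0. The actin ratio was 0.031 to 0.294 at T12 and −0.07 to 0.196 at T0. The part of tendon, muscle fibre and vessel wall RNA and of RNA integrity in the differences was not tested.

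In LD at T12 the CN signal of 6 of the 7 genes was below the mean of CC, NC and NN, as for 56.4% of all genes, and 0 of 7 passed the test, where 0.179% of all tested probe sets did. At an unadjusted p under 0.05 there were 4 of the 7, against 9.97% of all tested probe sets. For COL1A1 the 2 CN arrays (2715.4 and 2714.1) lay below the 6 of the other genotypes (4145.4 to 7355.1). COL1A2 had 7695.9 and 6268.6 in CN and 9400.4 to 15598.9 in the others. COL3A1 had 15972.5 and 13514.4 in CN and 17293.6 to 21865.2 in the others. FN1 had 162.8 and 212.2 in CN and 304.6 to 555.5 in the others. On the brightest probe sets of these 4 genes both CN arrays were below all 6 others, a pattern that 7.58% of all tested probe sets share. The dim second COL1A1 probe set overlapped, at 5.3 and 41.3 in CN and 5.6 to 92 in the others.

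The log2 differences of the genes whose brightest probe sets overlapped were −0.52 for SERPINH1 (limma adjusted p = 0.511), −0.60 for LOX (limma adjusted p = 0.598) and 1.06 for FKBP11 (limma adjusted p = 0.673). The FKBP11 difference ranged over 0.30 to 1.82 with 1 array left out, so its size is uncertain. For COL3A1 the brighter probe set gave −0.40 and the other −0.81, with limma adjusted p of 0.308 and 0.217. The median over the 7 genes was −0.60, against −0.057 over all genes. Which array stood for CN mattered for calls: COL1A2 passed without CN T12 array 1 (−0.93, limma adjusted p = 0.0367), and FN1 without CN T12 array 2 (−1.19, limma adjusted p = 0.0293). Against NC and NN alone the differences of COL1A1 and COL1A2 were −0.67 and −0.63, since CC had the highest T12 signal of both genes.

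Of the 86 other genes of collagen production 0 were called in CN LD at T12 by limma, and 61 were negative, against 56.4% of all genes, with a median of −0.19. The largest differences were in THBS2 (thrombospondin 2, −1.99), COL11A1 (−1.16), ADAMTS2 (the procollagen N-proteinase, −1.06) and FMOD (−1.06), none of which passed. THBS2 averaged 9.64 in CN and 38.2 in the other genotypes, and ADAMTS2 16.9 in CN and 35.2 in the others, all under 47.4. The fibroblast markers summed to 10730 to 11530 in CN and 12850 to 15250 in the other genotypes, with 0 of 10 called. The muscle fibre markers summed to 173400 to 201300 in CN and 204900 to 247900 in the others. Of 8 muscle fibre markers tested, 7 were negative and 2 were called lower in CN by limma, with a median log2 difference of −0.118. The list was drawn up with genes of both fast and slow fibres. The tendon markers summed to 3490 to 4832 in CN and 4099 to 7134 in the others, with COMP under 47.4 in CN. The adipocyte markers summed to 285.8 to 479.3 in CN and 476.8 to 912.9 in the others, with 0 of 4 called by limma and ADIPOQ under 47.4 in CN. The GAPDH 3′ to 5′ log2 ratio was −0.033 and 0.085 in CN, 0.066 and 0.043 in CC, and 0.187 to 0.246 in NC and NN. The actin ratio was 0.047 and 0.036 in CN and 0.031 to 0.294 in the others. The part of these in the CN differences was not tested.

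At T0 the CN arrays were also the lowest for both collagen types in LD. COL1A1 had 9236.5 and 9302.9 in CN and 12962.1 to 17665.2 in the others, and the log2 difference was −0.64 (limma adjusted p = 0.363). COL1A2 differed by −0.36 and COL3A1 by −0.37 (limma adjusted p = 0.509 and 0.292). On the brightest probe sets of these 3 genes both CN arrays were below all others, as in 9.68% of all tested probe sets. The dim second COL1A1 probe set overlapped. SERPINH1 (−0.49), FN1 (−0.36), LOX (0.41) and FKBP11 (−0.028) overlapped. None of the 7 passed at T0, where 0.172% of all tested probe sets did, and 2 of the 7 had an unadjusted p under 0.05, against 11.7% of all. How many days old the lambs of each T0 group were is unknown, and age cannot be told apart from genotype there. Of the 86 other genes 0 were called by limma and 58 were negative, against 53.1% of all genes. KDELR3, an ER retention receptor, averaged 15.9 in CN and 82.5 in the others (−2.37, limma adjusted p = 0.0615), COL2A1 differed by −1.23, THBS2 by −1.29 and SMAD3 by −1.11. KDELR3, THBS2 and SMAD3 lay under 47.4 in CN, so the size of their differences is uncertain. Fibroblast markers summed to 11690 to 12110 in CN and 13380 to 16290 in the others at T0.

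In SS the CN signal of type I collagen lay above that of NN. COL1A1 read 5722.1 and 6570.9 in CN and 4432.2 and 4469.8 in NN, and COL1A2 read 14110.7 and 16128.5 in CN and 12485.8 and 12877.5 in NN. The arrays of these genes did not overlap, as in 17.3% of all tested probe sets, and the differences of 0.46 and 0.25 did not pass (limma adjusted p = 0.9999 each). COL3A1 read 17036.4 and 20108.3 in CN and 21187.6 and 22058.6 in NN, below without overlap, as in 17.5% of all tested probe sets (−0.22). FKBP11 read 59.9 and 69.8 in CN and 72 and 91 in NN (−0.32). FN1 (−0.088) and SERPINH1 (0.091) overlapped. LOX read 97.3 and 65.9 in CN and 16.2 and 74.4 in NN (1.21, limma adjusted p = 0.885). None of the 7 genes and none of all tested probe sets was called by limma in SS (4.19% had an unadjusted p under 0.05).

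The CN difference in LD minus that in SS was −1.03 for COL1A2, −1.38 for COL1A1 and −1.81 for LOX. The comparators were unlike, the mean of CC, NC and NN in LD and NN alone in SS, and their part in these values was not tested. These differences of differences were not called either (limma adjusted p = 0.676, 0.723 and 0.679), with 0 of all tested probe sets called. At an unadjusted p under 0.05 there were 4 of the 7 genes, COL1A1, COL1A2, LOX and FN1 (−0.91), against 4.97% of all tested probe sets. LOX averaged 34.7 in NN SS, under 47.4, so the size of its differences here is uncertain. With 1 array left out, its LD minus SS value ranged over −2.91 to −0.71 and its SS difference over 0.11 to 2.31. Of the 86 other genes 53 had a higher signal in CN than in NN SS, against 49.9% of all genes, and 0 were called by limma, with a median of 0.086. COL2A1 averaged 185.5 in CN and 67.5 in NN SS (1.46). COL11A2 and P4HA3 lay under 47.4 in NN, at 26.1 and 30.4, and KDELR3 in CN, at 25.7, so no size is given for them. The tendon markers summed to 7948 to 9542 in CN and 5334 to 5422 in NN SS, and the cartilage markers to 419.2 to 455.3 in CN and 247.7 to 312.5 in NN SS. The part of these tissues in the SS differences was not tested.

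Among the muscles of lambs other than CN at T12, LOX was the gene of the 7 that was called. It read 16.2 and 74.4 in SS, against 127.7 and 271.4 in SM, 118 and 95 in ST, and 82.2 to 175.8 in CC, NC and NN LD. Both SS arrays lay below all of these, as in 10.9% of all tested probe sets against SM and ST and 9.87% against LD. The log2 difference was −2.02 ± 0.34 against SM and ST (limma adjusted p = 0.0206, where 0.536% of all tested probe sets were lower) and −1.76 ± 0.32 against LD (limma adjusted p = 0.0151, where 1.53% were lower). Of 4 adipocyte markers tested, 2 were called higher in SS than in LD and 1 higher in SS than in SM and ST. Of the 15664 tested probe sets, 223 were called higher against LD and 72 against SM and ST. The 6 adipocyte markers on the array summed to 2615 to 2673 in SS, 1190 to 1362 in SM and ST, and 476.8 to 912.9 in LD. The red blood cell markers summed to 33.8 to 78.6 in SS, 122.3 to 212.5 in SM and ST, and 102.2 to 175.4 in LD, with none called by limma. The GAPDH 3′ to 5′ log2 ratio was 0.024 and 0.058 in SS, 0.113 to 0.222 in SM and ST, and 0.043 to 0.246 in LD. The actin ratio was 0.127 and 0.088 in SS, 0.00023 to 0.19 in SM and ST, and 0.031 to 0.294 in LD. The part of these in the LOX differences was not tested. Both LOX calls rest on SS NN array 1, which read 16.2. Without the intensity trend they ended, with adjusted p of 0.166 against SM and ST and 0.116 against LD. Without array 1 the differences were −0.92 (limma adjusted p = 0.234) and −0.66 (limma adjusted p = 0.285). Without LD CC T0 array 1 the adjusted p were 0.0671 and 0.0505. The call against SM and ST also ended without any one of 3 other LD arrays, with adjusted p of 0.051 to 0.0552 (NC T0 array 1, NC T12 array 2 and NN T12 array 2).

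COL1A1 was higher in SS (4432.2 and 4469.8) than on any array of SM (2479.2 and 3302.8) or ST (3743.2 and 4010.2), and COL1A2 likewise, as 12.9% of all tested probe sets were, but neither passed (0.42 and 0.16, limma adjusted p = 0.618 and 0.819). The dim second probe set of COL1A1 had the opposite direction (−1.59), with both SS arrays at 16, and did not pass. SERPINH1 was lower in SS (749.4 and 861.6) than on any array of SM (1029.1 and 1097.1) or ST (863.1 and 1071.1), as in 10.9% of all tested probe sets, and did not pass (−0.33, limma adjusted p = 0.687). FN1 was 512.9 and 568.6 in SS, against 304.6 to 555.5 in LD (0.54, limma adjusted p = 0.309). Of the 86 other genes 1 was called lower and 1 higher in SS than in LD by limma. Of the 15664 tested probe sets 240 were called lower and 223 higher. TGM1 was lower in SS than in LD (−2.79, limma adjusted p = 0.00508) at a mean of 13.9 in SS, under 47.4, and 96.1 in LD. TNXB, the fibril spacing protein tenascin X, was higher in SS (0.94, limma adjusted p = 0.0398). Against SM and ST 0 of the 86 were called by limma. The test over all 4 muscles called LOX (limma adjusted p = 0.0400, where 1.28% of all tested probe sets passed) and no other of the 7 genes, with the same SS NN array 1 in it. Without the intensity trend its adjusted p was 0.232.

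Between the genotypes without the trait, neither NC against NN nor CC against NN gave a called member in LD over both ages (limma; 0.0128% of all tested probe sets were called in each). At an unadjusted p under 0.05 there was 1 of the 7 for NC, FKBP11 (1.32, limma adjusted p = 0.995), and 0 for CC, against 4.28% and 5.48% of all tested probe sets. The NN arrays of FKBP11 at T12 read 63.1 and 2.9, so the size of its difference is uncertain.

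The 12 groups were ordered by level, and neighbours were called apart where their arrays did not overlap. Each group has 2 technical arrays, so this sets groups against technical spread alone. Over all tested probe sets a median of 1 of 11 neighbouring pairs was apart, with 8 or more in 0.128%, 5 or more in 2.25% and 3 or more in 13%. The lowest group mean of COL1A1 was 2715, in CN LD at T12, and its highest was 16460, in NC LD at T0, a ratio of 6.06, and 8 of 11 neighbouring groups in that order did not overlap. The neighbours that overlapped were NN and CC LD at T0, NC LD and NN SS at T12, and SM and CN LD at T12. COL1A2 spanned 3.06-fold with 5 of 11 neighbours apart, and COL3A1 1.49-fold with 1 of 11 apart. SERPINH1 spanned 5.51-fold with 3 of 11 apart, and FN1 3.44-fold with 3 of 11 apart. CN LD at T12 was the lowest group for each of these 5 genes. LOX spanned 11.9-fold and FKBP11 15.2-fold, but 11 and 9 of their 11 neighbouring pairs overlapped.

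As a description over the 12 group values, which share arrays and scaling, the members were not all alike. COL1A1 correlated with COL1A2 at r = 0.93 and with SERPINH1 at 0.87, and SERPINH1 with LOX at 0.84. COL3A1 correlated with FN1 at 0.85 and with COL1A1 at 0.046, and FN1 correlated with COL1A1 at −0.13. Of 7477 other symbols the 8 closest to the mean profile of the 7 genes were TMEM45A (0.95), HNRNPA0 (0.94), SERPINF1 (0.94), CSRP2 (0.94), COPZ2 (0.94), MGST1 (0.92), CYP2D14 (0.92) and GALT (0.92). That mean profile itself correlated with COL1A2 at 0.93 and SERPINH1 at 0.92, and with FN1 at 0.35.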

How the data were processed

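The deposited table holds linear signal intensity per probe set, which the authors computed with MAS5, as the submitters' processing notes record without a version. The 2% trimmed mean lay between 200.08 and 200.093 on every array, so arrays share one scale. Signals at or below 1 (5477 of 579072) were set to 1, log2 was taken, and the technical arrays of a group, which correlated at r = 0.974 to 0.988, were averaged to 1 value. Sheep RNA was read with bovine probes, and the few arrays, with a median signal of 47.4 to 59.7, limit the precision.

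Of 24128 probe sets 112 controls were left out, and 15664 with a mean signal above 49.7 in at least 1 group were tested with limma 3.58.1 in R 4.3.3 (intensity trend, two-sided). The 12 values were fitted in 8 cells, with CC, NC and NN of LD at one age as 3 values of one cell (4 residual degrees of freedom, prior 6.88). The spread of these 3 stands in for that of cells with 1 value. NC and CC were set against NN in LD in a fit of 8 groups that included age (3 residual degrees of freedom, prior 7.14). P-values measure the spread between group values. The fit was tested on simulated data.

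Gene names come from the platform annotation of 2016, in which 13318 probe sets have 1 symbol, 86 several and 10724 none. All 7 symbols occur in the sheep RefSeq table of ARS-UI_Ramb_v3.0. The brightest tested probe set carries a gene's values. Other genes of collagen production are named where they passed the threshold or were among the 4 largest differences. Genes of like pattern are the 8 with the highest Pearson r to the mean standardized profile of the members. The members and lists were chosen with earlier results of these data known.

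Markers of other cell types were summed per array, and over all arrays the smooth muscle and pericyte list summed to 4320 to 8955, endothelial to 2416 to 4018, adipocyte to 285.8 to 2673, immune to 481.2 to 1030, red blood cell to 33.8 to 333.2, and nerve and Schwann to 232.5 to 575.7. The muscle fibre list, at 149400 to 255900 on all arrays, is that of the labelled tissue. Alternatives were quantile normalization, a floor of 16, no filter, a filter on the mean, no intensity trend, other comparators, leaving out each array and, added after seeing the data, genotype as a block.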

Additional observations from a re-analysis of the deposited data

How the results depend on the processing

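Of 350 values of the 7 genes under other settings, 337 kept their direction and their side of the threshold, 10 lost the call, and 3 changed sign. The 10 were, without the intensity trend, the 4 age calls of CN, LOX in SS against LD and against SM and ST, and COL1A1, COL1A2, LOX and FKBP11 with age in CC, NC and NN. The reversals were COL3A1 with age in CC, NC and NN under quantile normalization (0.072), FKBP11 in CN at T0 against NN alone (0.15), and SERPINH1 in SS against LD under quantile normalization (−0.00033). Leaving out 1 array gave 1512 values, of which 1473 kept both, 8 lost and 2 gained the call, and 29 changed sign. The log2 differences that changed sign in some of these fits ranged over −0.043 to 0.017 for COL3A1 and −0.066 to 0.22 for FN1 with age in CC, NC and NN, −0.16 to 0.080 for COL3A1 with age in CN, and −0.15 to 0.093 for COL3A1 and −0.22 to 0.15 for SERPINH1 in the interaction. They ranged over −0.20 to 0.14 for FKBP11 in CN at T0, −0.23 to 0.053 for FN1 and −0.0095 to 0.19 for SERPINH1 in CN SS, −0.11 to 0.13 for SERPINH1 in SS against LD, and −0.030 to 0.070 for COL3A1 and −0.11 to 0.37 for FKBP11 in SS against SM and ST. Without the intensity trend the numbers of probe sets called were 227 for age in CC, NC and NN (1830 with it), 86 for SS against LD (463), 4 for SS against SM and ST (156) and 1 for the test over muscles (201). They were 0 for age in CN (533), CN at T12 (28), CN at T0 (27), NC against NN (2) and CC against NN (2). CN at T12 had 11 under quantile normalization and 11 with no filter. CN at T0 had 67 with a floor of 16, 7 under quantile normalization and 53 with the filter on the mean. CC against NN had 4 with no filter. The cause of these shifts was not tested. Leaving out 1 array, the counts ranged over 1226 to 1907 for age in CC, NC and NN, 231 to 1011 for age in CN, 0 to 37 for the interaction, 1 to 417 for CN at T12, 3 to 269 for CN at T0, 0 to 12 for CN in SS, 0 to 2 for the LD minus SS difference, 88 to 275 for SS against SM and ST, 284 to 748 for SS against LD, 125 to 383 for the muscles, 2 to 4 for CC against NN, and stayed at 2 for NC against NN. No paired analysis was possible because the replicate numbers mark technical arrays, which were averaged to 1 value a group. With genotype as a block in the age comparison of CC, NC and NN, chosen after seeing the data, the same 5 genes were called (adjusted p = 0.000267 to 0.00285), and 1989 probe sets. Signals under about 47.4, the lowest array median, limit the sizes for FKBP11 and LOX.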
